A study of Mus musculus with 6 samples.

Results

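Fkbp5 encodes FKBP51, a co-chaperone that joins Hsp90 in the complex holding the unliganded glucocorticoid receptor and lowers the receptor's affinity for hormone. The gene is itself switched on by glucocorticoids in many cell types, so that its product forms a short negative feedback loop on the receptor. The glucocorticoid receptor binds DNA elements that often lie far from the start sites of its target genes, and such elements are seen by DNase-seq as stretches of accessible chromatin.

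The locus is the stretch of chromosome 17 from 28500000 to 28700000 in mm9, a window of 200 kb around Fkbp5, and its members are all DNase I hotspots that overlap it in any library. The selection rule places Fkbp5 on the minus strand at about 28.535 to 28.654 Mb. The locus was chosen by the presence and strength of hotspots in these same libraries, so the differences between LPS and Dex given here are descriptions and were not tested. The 6 lists held 71 hotspots in the window of 253044 in all, and these merged into 17 of 59069 regions.

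The libraries came from primary macrophages grown from bone marrow of C57BL/6J mice, all of which received lipopolysaccharide (LPS) for 8 h. LPS was the only treatment in 2 libraries. Another 2 come from cells pre-treated with Dex, the glucocorticoid of the study, before LPS, and 2 from late-treated cells, in which Dex came late in the LPS treatment. The labels give no dose of Dex, no interval and no statement that replicates came from separate animals, so the spread between replicates may be technical. Cells without LPS were not analysed here, and the identity of the cells as macrophages was not checked, since marker genes could not be placed on mm9 positions.

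The lists differed in length, from 48084 and 51834 hotspots with LPS alone to 29347 to 44686 with Dex, and the LPS lists reached lower z-scores (minimum 7.98 and 8.35, against 8.98 to 11.6). The total number of tags is unknown. A z-score is the authors' value for a hotspot within its own list, and it is given here also as a percentile of that list, where 100 is the strongest. The maximum tag density of a hotspot was divided by the library's median over the 25091 regions listed by all 6 libraries, and the quotient is called relative density. These medians lay between 17.6 and 19.7. No source states that z-scores or densities are comparable between lists.

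The RefSeq promoter of Fkbp5 is shown because it is the part of the gene whose sequence could be searched for the receptor's element. It is the stretch of 250 bases before the start site, chr17:28486150-28486399 on the minus strand of GRCm38.p6, written 5′ to 3′. GRCm38.p6 positions cannot be set beside the mm9 positions of the hotspots. Which of the 17 regions holds this start site was therefore not determined, and the gene span of the selection rule is longer than that of the gene in the RefSeq table. Capitals mark the single match to the NF-kB form searched, GGG and CC separated by any 5 bases.
Fkbp5 promoter: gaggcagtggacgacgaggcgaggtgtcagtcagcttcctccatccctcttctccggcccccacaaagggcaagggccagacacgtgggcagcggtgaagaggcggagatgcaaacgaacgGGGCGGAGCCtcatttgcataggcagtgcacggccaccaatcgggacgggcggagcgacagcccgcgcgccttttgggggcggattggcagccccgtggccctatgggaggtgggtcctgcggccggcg

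The glucocorticoid response element was searched as AGAACA and TGTTCT 3 bases apart, allowing 2 mismatches over the 12 letters, and had 0 matches in the Fkbp5 promoter. Among all 32851 promoters of the table, cut to the same length, 1.56% held at least 1 match. One arm of the element, AGAACA, on either strand, had 0 matches here and was found in 16.1% of all promoters. The AP-1 form TGANTCA had 0 matches and was found in 6.75%. The NF-kB form, of which Fkbp5 has 1 match at -129 to -120 relative to the start, was found in 45.8%. These letters were searched on both strands, and an absence speaks only of this stretch. The promoter is rich in CpG, with 23 CpG dinucleotides against a median of 6 and a GC content of 68.0% against a median of 52.4%. In the RefSeq table the next protein-coding genes are Tulp1 and Tead3 on one side and Armc12, Clpsl2, Clps and Lhfpl5 on the other.

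Numbered along the chromosome from 1 to 17, the regions fell into 4 classes. All 6 libraries listed 5 of them, regions 2, 9, 11, 14 and 16. Regions 10, 12 and 13 were Dex-only, that is, present in each of the 4 Dex lists and absent from both LPS lists, as were 0.389% of all regions in the genome. Regions 1 and 8 were LPS-only, listed in both LPS libraries and no Dex library, against 5.18% of all regions. The other 7 regions had mixed listings, and 3 of these (6, 7 and 17) appeared in a single library, at z-scores of 8.51 to 10.1. The window was used to choose the locus, so nothing is read from these shares. Outside the window, the nearest regions at 28464812 to 28466124 and at 28725188 to 28726340 were listed by all 6 libraries. The first had z-scores of 71.9 to 102. The second had 37.6 and 36.2 with LPS alone and 17.1 to 23.9 with Dex. Just inside the edges lay region 1 (28505252 to 28505815), at 9.23 and 13.6 with LPS alone, and region 17 (28689926 to 28690195), at 8.51 in replicate 2 of the LPS group.

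**Figure D1:**
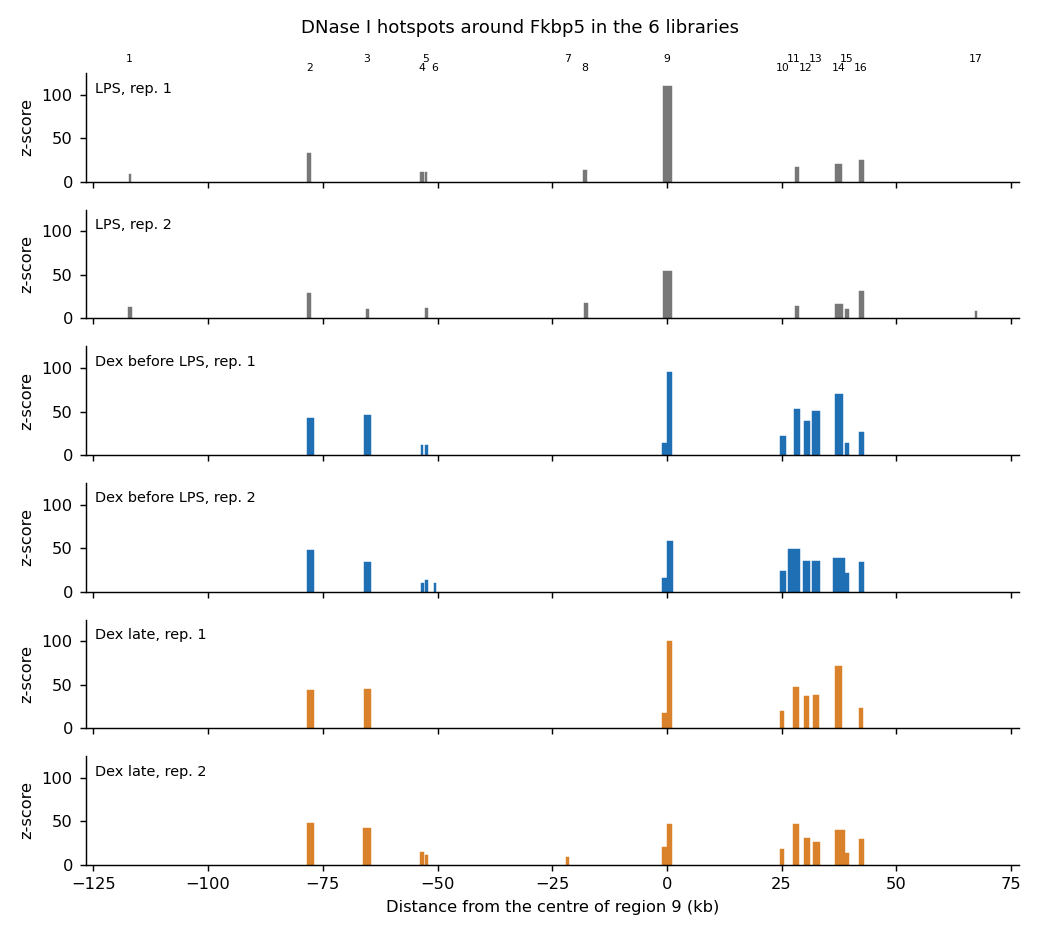
Hotspots of the window in each of the 6 libraries, drawn at their width and with their z-score as height, by distance in kb from the centre of region 9. Numbers above the top panel are the regions; the block from region 10 to region 14 is tall in the 4 Dex libraries and holds 2 low hotspots in each LPS library.

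The Dex-only regions lay close together. From region 10 to region 13, between 28647329 and 28655888, a run of 8.56 kb held 3 Dex-only regions and the shared region 11. The hotspots of this run covered 647 and 621 bp with LPS alone, 4761 and 6343 bp in the pre-treated libraries, and 3793 and 4564 bp in the late-treated libraries. The run is bounded by regions that were defined as absent from the LPS lists, so its LPS length comes from region 11 alone and the lower LPS values follow largely from that choice. By the span of the selection rule the run lies at the start side of Fkbp5 and reaches past its upper bound. That bound, given as about 28.654 Mb, lies between regions 12 and 13. Whether the run lies inside the gene or upstream of it was not determined.

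Region 10 (28647329 to 28648392) was the weakest of the run. Its z-scores were 21.6 and 24.2 in the pre-treated and 20.3 and 18.6 in the late-treated libraries, and its relative density lay between 0.864 and 1.02, close to the median of regions listed everywhere. Region 12 (28652382 to 28653776) had z-scores of 39.2 and 35.3 with Dex before LPS and of 36.5 and 30.9 with Dex late. Region 13 (28654281 to 28655888) had 50.7 and 35.1 with Dex before LPS and 38.6 and 26.4 with Dex late. The LPS lists, which reach down to 7.98 and 8.35, held no hotspot in these 3 regions. Among the 230 Dex-only regions of the genome, ordered by mean percentile over the 4 Dex libraries, region 13 ranked 10 (74.1), region 12 ranked 12 (73.5) and region 10 ranked 60 (52.2), where the median was 39.1.

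Region 11 (28649170 to 28651540), between the Dex-only regions, was listed everywhere and had the largest difference in mean percentile, 4 Dex minus 2 LPS libraries, of the window's shared regions (39.7, against 30.7 for region 14). Its z-scores were 16.7 and 13.7 with LPS alone, 53.5 and 49.2 with Dex before LPS, and 47.4 and 46.5 with Dex late. Its maximum tag densities were 13.4 and 11.5 with LPS alone and 50.6, 51.3, 38.8 and 46.5 with Dex, in the same order. In relative density that is 0.702 and 0.611 against 2.20 to 2.80. In percentile all 4 Dex libraries stood above both LPS libraries, as in 1.3% of regions listed everywhere. In z-score and relative density they did so too, and how often that holds among those regions was not counted. The log2 ratio of mean relative density was 2.04 for the pre-treated and 1.81 for the late-treated group against LPS. The hotspot was also wider, from 647 and 621 bp with LPS alone to 1169 and 2370 bp in the pre-treated and 1040 and 1255 bp in the late-treated libraries. Most of the widening lay on its low side, by 663 bp on average against 161.5 bp on its high side, and the low-side value leans on replicate 2 of the pre-treated group, whose hotspot began at 28649170 where the other 3 Dex hotspots began between 28650137 and 28650329.

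Region 14 (28659012 to 28661416), beyond the Dex-only run, differed to a like degree. Its z-scores were 20.7 and 16.5 with LPS alone, 70.5 and 38.3 with Dex before LPS, and 72.0 and 39.5 with Dex late. Relative density was 0.649 and 0.593 with LPS alone, 3.02 and 1.46 with Dex before LPS, and 3.14 and 1.70 with Dex late. Here too all 4 Dex libraries stood above both LPS libraries, in percentile as in 1.3% of regions listed everywhere. For z-score and relative density that share was not counted. Within each Dex group replicate 1 was higher than replicate 2 by more than the difference between the Dex groups. The log2 ratio against LPS was 1.85 for the pre-treated and 1.96 for the late-treated group.

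Of the 5 shared regions, 2 (regions 11 and 14) had all 4 Dex percentiles above both LPS percentiles, as did 1.3% of the 25091 regions listed everywhere. None of the 5 had both LPS percentiles above all 4 Dex ones, as did 30.2%. The LPS lists were longer, and a list with more weak hotspots places the same region at a higher percentile. The part of list length in these shares and in the median percentile difference was not tested. The median percentile difference over the 25091 regions was -4.86 for the pre-treated and -8.40 for the late-treated group. Over the 5 regions of the window it was 6.32 and 6.46, and the late value was -0.13 when the second late-treated library was left out. Relative density was at least 2-fold higher with Dex in the same 2 regions of 5, against 0.713% of regions listed everywhere. The median log2 ratio over all of those regions was 0.03, and regions 11 and 14, at 1.93 and 1.91, stood above 99.96% and 99.95% of them.

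**Figure D2:**
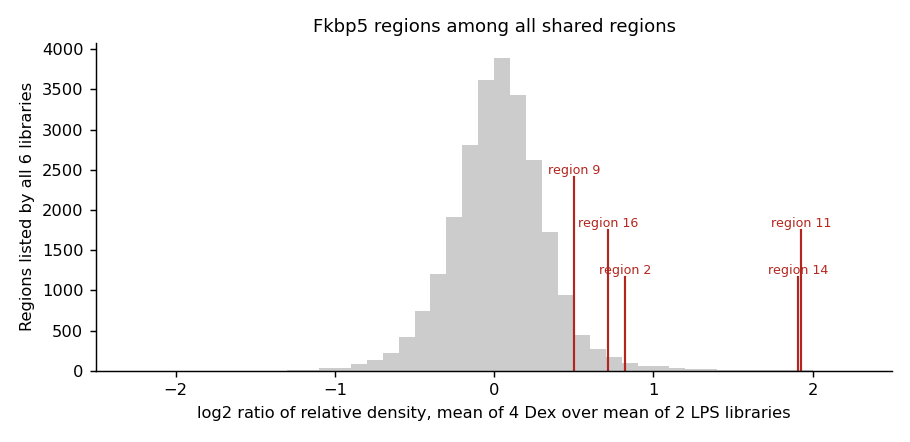
Histogram of the log2 ratio of relative density, mean of the 4 Dex over mean of the 2 LPS libraries, over the 25091 regions listed by all 6 libraries, with the 5 regions of the Fkbp5 window as red lines. Regions 11 and 14 lie at 1.93 and 1.91, and regions 2, 16 and 9 at 0.82, 0.72 and 0.50, in the upper part of the distribution.

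Away from the run, at the other end of the gene span, regions 2 and 3 were also stronger with Dex. Region 2 (28544199 to 28545649) stood at z-scores of 33.6 and 29.1 under LPS and of 42.1, 47.4, 44.1 and 47.7 with Dex (pre-treated 1 and 2, late-treated 1 and 2). Its relative density was 1.05 and 0.852 with LPS alone and 1.48 to 1.95 with Dex, without overlap. The log2 ratio of 0.82 was above that of 98.7% of regions listed everywhere. How often relative density is without overlap among those regions was not counted, for this or any other region of the window. The percentiles of region 2 did overlap, since replicate 1 of the late-treated group (74.43) lay between the LPS libraries (74.87 and 74.35). Ranked only among the regions listed everywhere, where list length plays no part, they were 52.3 and 47.5 with LPS alone and 68.3 to 78.3 with Dex. The difference in shape was one-sided. The hotspot began between 28544199 and 28544251 in all 6 libraries, but ended at 28544987 and 28545006 with LPS alone and between 28545503 and 28545649 with Dex, 593 bp further on average. Regions 2 and 11 were the 2 of 5 shared regions in which all 4 Dex libraries covered more length than both LPS libraries, as in 1.46% of regions listed everywhere.

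Region 3 (28556565 to 28558111) missed the Dex-only class through a single weak listing. Its z-scores were 45.4 and 34.1 with Dex before LPS and 45.1 and 42.1 with Dex late. Replicate 1 of the LPS group did not list it, and replicate 2 did at a z-score of 10.5, over 421 bp where the Dex hotspots were 1210 to 1546 bp wide. Its relative density was 0.333 in that LPS library and 1.35 to 1.91 with Dex. In lists of equal length, or from a common minimum z-score of 11.6, region 3 was Dex-only as well, which made 4 such regions in the window.

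Region 9 (28621687 to 28623782) had the highest z-score of the locus in 5 of the 6 libraries, the exception being replicate 2 of the late-treated group (46.9, against 47.7 in region 2), and here the larger contrast followed the replicate number. Its z-scores were 110.0, 95.7 and 99.8 in replicate 1 of the LPS, pre-treated and late-treated groups, and 53.9, 58.3 and 46.9 in replicate 2. Relative density was 3.96, 5.45 and 5.82 in the number 1 libraries and 1.76, 2.65 and 2.30 in the number 2 libraries. All libraries with number 1 thus stood above all with number 2, which held for 1 of the 5 shared regions and for 22.9% of regions listed everywhere. Within each number the Dex libraries were above LPS in relative density, but their percentiles in the lists were not (96.4 and 90.4 with LPS alone, 93.6 and 89.9 with Dex before LPS, 93.2 and 87.3 with Dex late). The labels do not say what the number stands for, and its part in the result was not tested.

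The outline of region 9 did follow treatment. Both LPS libraries listed a single hotspot of 1648 and 1895 bp. Each Dex library listed a pair, a weak hotspot of 775 to 982 bp on the low side (z-scores 13.4 to 20.7) and the strong one of 810 to 992 bp, with 50 to 328 bp between them. This pattern, 1 hotspot in both LPS libraries and at least 2 in all 4 Dex libraries, was found in 1 of the 5 shared regions of the locus and in 0.434% of regions listed everywhere.

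Region 16 (28664618 to 28665505) lay 2 regions past region 14 and differed little by z-score, at 25.6 and 31.7 with LPS alone, 26.5 and 34.0 with Dex before LPS, and 23.2 and 29.3 with Dex late. Ranked only among the regions listed everywhere, the z-scores overlapped too, at percentiles of 36.8 and 53.1 against 41.6 to 56.4 with Dex. Its relative density was 0.737 and 0.889 with LPS alone and 1.18 to 1.48 with Dex. These densities did not overlap, and how often that holds among regions listed everywhere was not counted. The 2 measures of the same hotspots thus did not give the same picture. The percentile difference of region 16 was above that of 48.4% of shared regions, and its log2 density ratio of 0.72 was above that of 98.1%. Its width was 830 and 866 bp with LPS alone and 651 to 847 bp with Dex.

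**Figure D3:**
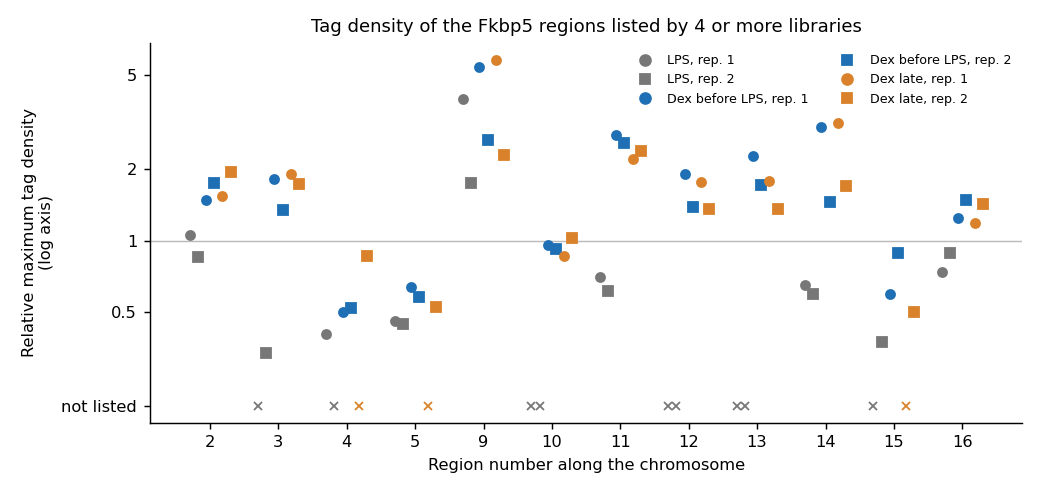
Relative maximum tag density (log axis) of the 12 regions listed by at least 4 libraries, by region number. Circles are replicate 1 and squares replicate 2, grey is LPS alone, blue Dex before LPS and orange late Dex, and crosses mark libraries that did not list the region; in regions 3, 11 and 14 every coloured point lies well above the grey ones, and in region 9 every circle lies above every square.

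The remaining regions were weak. Region 8 (28604554 to 28605267) was the stronger of the 2 LPS-only regions, at z-scores of 13.6 and 17.9. Regions 4 and 5, at 28569006 to 28569666 and 28569943 to 28570393, had z-scores of 10.3 to 15.2 and 11.2 to 13.1 in the libraries that listed them, with LPS and Dex values mixed. Region 15 (28661521 to 28662316), directly after region 14, was listed at 11.1 in replicate 2 of the LPS group and at 13.4, 21.3 and 13.4 in 3 Dex libraries.

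Pre-treated and late-treated libraries were then set side by side. All 4 Dex libraries listed 9 regions of the window. In 3 of these, the Dex-only regions 10, 12 and 13, both pre-treated percentiles were above both late-treated ones, as in 15.6% of the 25533 regions listed by all 4 Dex libraries. The reverse was found in 0 of the 9 and in 3.1% of all. Region 13 showed it most plainly, with percentiles of 81.5 and 76.4 against 70.0 and 68.4 and relative densities of 2.27 and 1.71 against 1.80 and 1.36. Those relative densities overlapped. So did those of region 10 (0.955 and 0.923 against 0.864 and 1.02) and of region 12 (1.91 and 1.38 against 1.77 and 1.36). The z-scores overlapped in regions 12 and 13 and did not in region 10. Percentiles also depend on list length, and the late-treated lists held 29347 and 44447 hotspots against 34646 and 44686 in the pre-treated ones. In region 12 the percentiles were 74.8 and 76.5 against 68.2 and 74.7, and in region 10 they were 53.0 and 62.2 against 41.3 and 52.2. No region was listed in both libraries of 1 Dex group and in neither of the other.

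Over the whole window, hotspots covered 6954 and 8556 bp with LPS alone, 12496 and 16251 bp with Dex before LPS, and 10118 and 14249 bp with Dex late. The means were 7755 ± 1133, 14373.5 ± 2655 and 12183.5 ± 2921 bp (SD, n = 2 each). Both Dex groups were longer than LPS, by 6618.5 and 4428.5 bp, and they overlapped each other. All 4 Dex libraries covered more than both LPS libraries, as in 0.285% of 8080 windows of the same size. Over those windows the median difference, mean Dex minus mean LPS, was -1057 bp, and the Fkbp5 window, at 5523.5 bp, ranked 1. The other windows were laid end to end from the bounds of this one and not centred on a locus. The locus was chosen from hotspots of these same libraries, so nothing is read from its rank or from this share. Outside the stretch from region 10 to region 14, the window's hotspots covered 5067 and 6489 bp with LPS alone and 4954 to 7612 bp with Dex, with overlap. In that stretch of 14.1 kb, they covered 1887 and 2067 bp with LPS alone and between 5164 and 8742 bp with Dex. The stretch was chosen for its Dex-only regions, which hold no LPS hotspot by definition. The lower LPS values there follow largely from that choice, so nothing is read from where the gain in length lay.

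**Figure D4:**
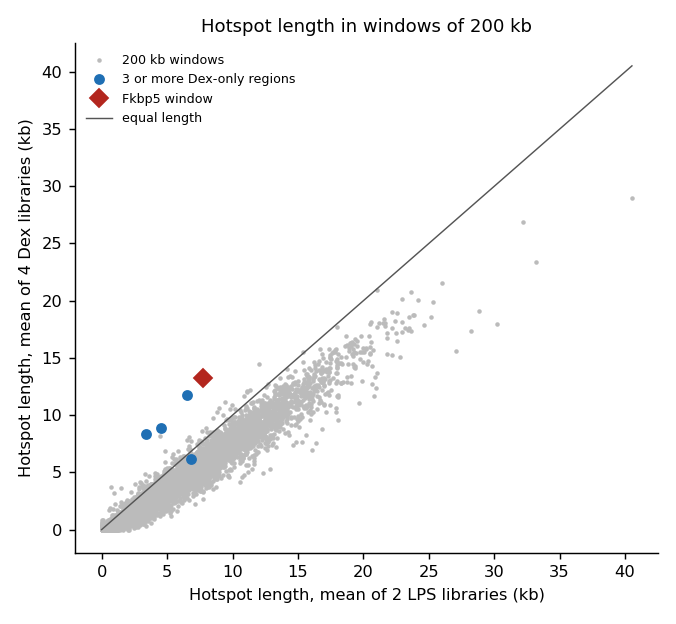
Hotspot length in windows of 200 kb, mean of the 2 LPS libraries against mean of the 4 Dex libraries, in kb. The Fkbp5 window (red diamond) lies at a mean of 7755 bp with LPS alone and above the line of equal length; most windows lie below the line, and blue points are the 4 other windows with 3 or more Dex-only regions.

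At least 3 Dex-only regions were found in 5 of 8077 windows (0.0619%), the Fkbp5 window among them. A window on chromosome X (136900000 to 137100000) and one on chromosome 13 (60900000 to 61100000) held 4 each, and windows on chromosome 19 (23100000 to 23300000) and chromosome 4 (108700000 to 108900000) held 3 each. The Fkbp5 window held the most regions of any class of the 5, 17 against 8 to 14. The gain in length was 5230, 4960 and 4344 bp on chromosomes X, 13 and 19, and on chromosome 4 the difference, Dex minus LPS, was -673 bp.

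Regions elsewhere with the pattern most like region 11 were sought by the Euclidean distance between the 6 within-list percentiles. The nearest, at a distance of 6.12 percentile points, was on chromosome 12 at 8351347 to 8352650, at 49.0 and 39.8 with LPS alone and 73.2 to 86.7 with Dex. The next lay on chromosome 9 at 44920519 to 44922052 (10.8) and 121480384 to 121481823 (12.5), on chromosome 4 at 140827205 to 140828443 (16.1) and on chromosome 5 at 32387677 to 32388838 (16.7). They are named by position only.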

How the data were processed

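DNase-seq libraries of macrophages, 6 in all, were analysed from the authors' hotspot lists, 1 per library. Single-end reads of 51 bp came from DNase I fragments of 100 to 500 bp, per the labels' protocols. Reads went through CASAVA and positions are in mm9, per the submitters' processing notes. No aligner or hotspot caller is named (not given in the sources used here). The deposited signal values are the maximum and average tag density of each hotspot, per the file headers. Each hotspot also has a deposited z-score (unit: score), and the deposited p-value, not stated to be adjusted, was not used. Low maximum densities (the lowest 5% of each list) were whole multiples, within 0.1 of a step, of a step between 0.334 and 0.443, and total depth is unknown.

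Hotspots were merged where they overlapped or touched, and in a region with several hotspots of 1 library the one with the highest z-score was used. Groups come from the sample titles. No test was run: the locus, the members and the measures were chosen with earlier results of these data known, and relative density, the hotspot pattern and the run were added after the values were seen. All 17 regions are named or counted, and the 5 most like region 11 follow a rule on distance. Merging and ranking were tested on simulated lists of nearly equal length with regions planted well apart. That check did not cover closely spaced regions or lists of unequal length. Alternatives were lists of equal length (29347 hotspots), a common minimum z-score, merging across 500 bp, a cover of 50%, the gene span alone, ranking by density, ranking among shared regions, blocking by replicate number, and leaving out 1 library at a time. Python 3.11.15 and pandas 2.3.3 were used, and promoters are from RefSeq (GRCm38.p6).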

Additional observations from a re-analysis of the deposited data

How the results depend on the processing

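The 3 Dex-only regions became 4 with lists of equal length, a common minimum z-score and a cover of 50%, region 3 being the added one. They became 2 within the approximate gene span of the selection rule, which is longer than the RefSeq gene. With each library left out there were 3 to 4. The gain in length kept its direction in every alternative run, from 4741 to 8496 bp for the pre-treated and from 2363 to 6494 bp for the late-treated group with a library left out.

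The number of shared regions with all Dex percentiles above both LPS ones was 2 (regions 11 and 14). It was 1 with a cover of 50%, where region 11 was no longer listed by all 6 libraries. It was also 1 within the gene span of the selection rule, which leaves out region 14. With lists of equal length it was 2, but these were regions 2 and 14, since region 11 again left the shared set. It was 3, with region 2 added, with a common minimum z-score and with percentiles among regions of all 6 libraries, and ran from 2 to 4 with a library left out, 4 being without replicate 1 of the LPS group. The median percentile difference of the pre-treated group (6.32) was 12.2 with lists of equal length, 20.9 with percentiles among regions of all 6 libraries, and 2.20 to 20.6 with a library left out, the highest without replicate 1 of the LPS group. That of the late-treated group (6.46) was 14.3 with a common minimum z-score, 24.4 among regions of all 6 libraries, and -0.13 to 21.3 with a library left out. The lowest, without replicate 2 of the late-treated group, reversed its sign, and the highest was without replicate 1 of the LPS group; the cause was not tested. Without the first LPS replicate the median is over 6 shared regions, since region 3 then counts as shared.

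No test was run, with or without a block. With the replicate number as a replicate block, added after seeing the data, the log2 density ratio of region 9 was 0.498 against 0.503. Depth limits what an unlisted region means, since a region missing from a list may lie just under its threshold.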
